A study of Homo sapiens with 62 samples.

Results

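Transcripts of 10 S100 calcium-binding proteins were followed in human pancreatic ductal adenocarcinoma cells whose transcription factor KLF5 could be degraded on demand. The members were S100A2, S100A4, S100A6, S100A8, S100A9, S100A10, S100A11, S100A14, S100A16 and S100P. They were found by gene name, from a list drawn up with earlier results of these data known, and all 10 were among the 29794 genes of the tables. RNA was measured by SLAM-seq, in which cells take up 4-thiouridine (4sU) before harvest. After alkylation of the RNA, reads of transcripts made during labelling carry T>C conversions. Labelling lasted 2 h, so T>C reads report recent synthesis and all reads report the standing pool. The labelled share of a gene is the percentage of its reads that carry T>C.

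There were 62 libraries in 12 groups from 2 lines, AsPC-1, a model of the classical subtype, and T3M-4, a model of the basal-like subtype. Cells of every group, controls included, expressed Cas9, carried a knockout of endogenous KLF5 and made KLF5 from a lentiviral cDNA fused to FKBP12-F36V and FLAG. The cells were polyclonal pools selected with G418. For 4 h they received dTAGv-1, which recruits the fusion for degradation (dTAG, 10 AsPC-1 and 4 T3M-4 libraries), its inactive analogue dTAGv-1-NEG (NEG, 10 and 4), CB-6644, an inhibitor of the ATPases RUVBL1 and RUVBL2 (5 and 4), NVP-2, an inhibitor of the elongation kinase CDK9 (4 and 4), or the solvent DMSO (5 and 4). A further AsPC-1 pair received either CB-6644 or DMSO over 12 h (4 libraries each). Libraries are named here by the numbers in their labels, so that library 3.2 is the second library of experiment 3. Experiments 1 and 2 of dTAG and NEG in AsPC-1 were batch 1 by the labels and experiment 3 was batch 2. All 4 AsPC-1 NVP-2 libraries were batch 2 while the DMSO libraries at 4 h were batch 1. In T3M-4, experiment 1 was batch 1 and experiment 2 was batch 2. The study describes its SLAM-seq libraries as biological replicates from independent experiments. Whether libraries of 1 experiment came from separate cultures was not given in the sources used here, so p-values measure the spread between libraries, which may be technical.

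S100 proteins are small calcium-binding proteins of the EF-hand type that mostly act as dimers. They have no catalytic activity, and most change shape on binding calcium so that they can bind and regulate partners such as annexins, myosin and ezrin. Some are also secreted and bind cell-surface receptors such as AGER (RAGE). Several are abundant in epithelial tumors, and S100P and S100A2 have long been studied in pancreatic cancer. Apart from S100P on chromosome 4, the members lie on chromosome 1 among the genes of the epidermal differentiation complex, between the start of S100A10 at position 151982915 and the end of S100A14 at position 153616986 (GRCh38).

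Because KLF-type zinc fingers prefer GC-rich DNA, the promoters were searched for a KLF-type motif. Of 35116 RefSeq promoters of GRCh38.p14, each reaching from 250 bases before to 50 bases after a transcript start, 14 belonged to the members. The letters searched were GGGCGGGGC, GGGCGTGGC, GGGTGGGGC and GGGTGTGGC, on both strands. These letters also match sites of other GC-box factors. They were present in 6445 promoters (18.4%) and in at least 1 promoter of 5871 of 27305 genes (21.5%). Among the members, 5 of 14 promoters held a match, each from a different gene, so 5 of the 10 members had at least 1. The 5 windows are shown because KLF5 is the factor degraded here. Capitals mark the match and each window is written 5′ to 3′ on the strand of its gene.
S100A6, chr1:153536074-153536102, minus strand: ccacggcgcaGGGTGGGGCgcgggcggga
S100A9, chr1:153357710-153357738, plus strand: aacatttcctGCCCCGCCCcagccccctt
S100A11, chr1:152037054-152037082, minus strand: aggcggggagGGGCGGGGCaggcgcggaa
S100A14, chr1:153616430-153616458, minus strand: ggccagcggaGGGTGGGGCccataaagct
S100A16, chr1:153609382-153609410, minus strand: ggcgtggcttGGGCGGGGCgagagtgatt
The match in S100A9 is on the opposite strand of the gene, where it reads GGGCGGGGC. The windows of S100A11 and S100A16 shared the core GGGCGGGGC, and those of S100A6 and S100A14 shared GGGTGGGGC. A match is a description of letters, and binding was not measured in these libraries.

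AsPC-1 libraries held 2240998 to 18311982 T>C counts and T3M-4 libraries 3714015 to 27982537, with the lowest totals under NVP-2. Their all-read totals were 82676553 to 200298262 and 111132257 to 244524608. Counts of S100A4 and S100A14 were multiples of 4 in every library, those of S100A6 of 3, and those of S100A8 and S100A10 of 2, so they carry more counting error than a plain read count of that size. Levels are therefore compared within a gene and not between genes. All 5 basal-like markers had a median over 10 CPM (1e6 times the count over the library total) in T3M-4 and none of them did in AsPC-1 (0 of 5), and 3 of 5 classical markers were over 10 CPM in AsPC-1. No marker of myeloid cells (0 of 5), fibroblasts (0 of 4) or endothelium (0 of 2) had a median over 10 CPM in either line. KLF5 T>C reads rose after dTAG by 0.60 ± 0.11 (log2 fold change ± SE) in AsPC-1 and 0.90 ± 0.15 in T3M-4 (edgeR adjusted p = 0.00284 and 0.0258), and RNA counts do not measure the degraded protein.

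The lines held different S100 repertoires. In DMSO at 4 h, 7 of the 8 members with T>C reads in both lines differed in T>C reads by edgeR, where 48.4% of 13044 genes tested were called. S100A8 and S100A9 passed the filter on low counts only through T3M-4 and are described by their levels. S100A2, a member linked to squamous epithelium, stood at 17.4, 17.9, 26.6, 31.6 and 39.5 T>C CPM in the 5 AsPC-1 libraries and at 1337, 1383, 1678 and 1817 T>C CPM in the 4 T3M-4 libraries. All T3M-4 libraries were far above all AsPC-1 libraries, and the log2 difference was 5.92 ± 0.28 (adjusted p = 1.4e-07). S100A14, an epithelial member, was higher in T3M-4 by 5.46 ± 0.32 and S100P by 5.34 ± 0.42. S100A16, a broadly expressed member, was higher in T3M-4 by 0.75 ± 0.24 (adjusted p = 0.024), a call kept in 3 of 9 fits that each left out a library, over which the difference ran from 0.62 to 0.89.

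S100A8 and S100A9, the subunits of the myeloid protein calprotectin, were transcribed in T3M-4 and near absent from AsPC-1. S100A8 had 0 reads of any kind in 36 of 41 AsPC-1 libraries and S100A9 in 15, and their highest counts were 38 and 36 all reads. In T3M-4, all reads ran from 13.8 to 54.1 CPM for S100A8 and from 35.9 to 67.9 CPM for S100A9. Set against the floor of 3 reads over the 5 AsPC-1 DMSO libraries, which all had 0 T>C reads, which is 6 counts for S100A8 because its counts come in multiples of 2, S100A8 was at least 58.6-fold and S100A9 at least 173-fold higher in T3M-4. The floors cover counting error only. The 5 myeloid markers summed to 0.255 to 1.7 CPM in the T3M-4 libraries, and their part in these levels was not tested.

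The opposite pattern was that of S100A4, a myosin-binding member named for its link to metastasis. S100A4 had 355 to 1553 T>C CPM in AsPC-1 and 1.17 to 6.20 T>C CPM in T3M-4, a log2 difference of -7.78 ± 0.67 (adjusted p = 4.9e-06). S100A6 (calcyclin) was lower in T3M-4 by -1.42 ± 0.17 on the log2 scale, and S100A10, the light chain of the annexin A2 tetramer, by -1.27 ± 0.16. S100A11, a partner of annexin A1, overlapped between the lines (0.03 ± 0.40, adjusted p = 0.96). In all reads the same 7 were called, each in the same direction, where 55.7% of 15464 genes were called. In the labelled share, 0 of the 8 members with enough reads in both lines were called by limma, against 15.0% of 11504 genes, and 0 had an unadjusted p under 0.05. The plot of all reads by library shows the gap between lines for S100A2, S100A4, S100A8, S100A9, S100A14 and S100P.

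**Figure D1:**
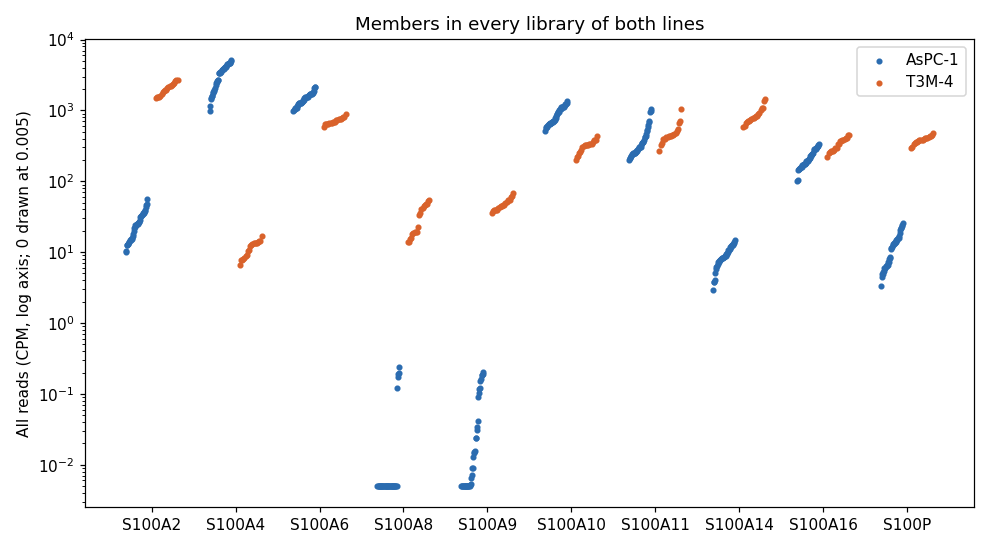
All reads (CPM, log axis) of each member in every library with all reads, 41 of AsPC-1 and 20 of T3M-4, each point a library in rising order within a gene and line, with 0 drawn at 0.005. Points of the lines do not overlap for S100A2, S100A4, S100A6, S100A8, S100A9, S100A10, S100A14 and S100P, and overlap for S100A11 and S100A16.

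In AsPC-1, the labelled share of most S100 transcripts was lower after KLF5 degradation. Of the 8 members tested, 7 fell in labelled share after dTAG, but the share of called genes was 39.7% over 11818 genes, almost all lower, and the libraries as a whole held 8.0% ± 0.337 (SD, n = 9) T>C reads after dTAG against 9.3% ± 0.689 (n = 10) with NEG. The median change of the 8 members was -0.75 in log2 odds of the labelled share, against -0.33 over all genes. The dTAG library 3.1 has no usable all-read column and is absent from these values.

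S100A4 gave the clearest separation. Its labelled share ran from 1.18% to 1.71% with a median of 1.41% in 9 dTAG libraries, and from 2.45% to 3.22% with a median of 2.75% in 10 NEG libraries. No dTAG library reached the lowest NEG library, and the difference was -1.03 ± 0.11 in log2 odds (limma adjusted p = 1.1e-05). Within batch 1 it was -0.99 ± 0.15 (adjusted p = 0.00239) and within batch 2 -1.11 ± 0.26 (adjusted p = 0.249). Across experiments 1, 2 and 3 the mean share was 1.35%, 1.64% and 1.33% after dTAG and 2.87%, 2.73% and 2.84% with NEG, so the gap was present in each. The standing pool differed in experiment 3, where S100A4 had 973 to 1580 CPM of all reads after dTAG and 2480 to 3470 CPM with NEG. Groups without overlap were found for 2 of 8 members, S100A4 and S100A10, against 1.6% of genes for which every dTAG library was lower.

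S100A10 labelled share was 2.50% to 3.18% with a median of 2.77% after dTAG and 3.36% to 4.73% with a median of 3.95% with NEG. The difference was -0.54 ± 0.09 (adjusted p = 0.00084). S100A16 had 2.43% to 4.86% with a median of 2.87% after dTAG and 4.21% to 6.83% with a median of 5.34% with NEG. Its groups overlapped by their extremes and its difference was -0.80 ± 0.14 (adjusted p = 0.00071). The other members that fell were S100A14 (5.09% ± 2.51 against 8.82% ± 2.95), S100A2 (5.26% ± 1.94 against 7.97% ± 1.72), S100A6 (2.54% ± 0.525 against 3.45% ± 0.557) and S100A11 (4.05% ± 1.04 against 5.41% ± 0.92). S100P, with 0 to 35 T>C reads in each dTAG library, had 1.14% ± 0.616 against 2.07% ± 0.68 and was not called (adjusted p = 0.053). With a minimum of 100 reads, or with a pseudocount of 2, all 8 members were called. In dTAG library 3.3, 0 of 503 S100P reads carried a conversion, which allows a share of up to 0.596%. Of the 7 calls, 0 were kept within batch 2 alone, where 4 genes of 12260 were called in all, and 1, S100A4, without experiment 1.

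**Figure D2:**
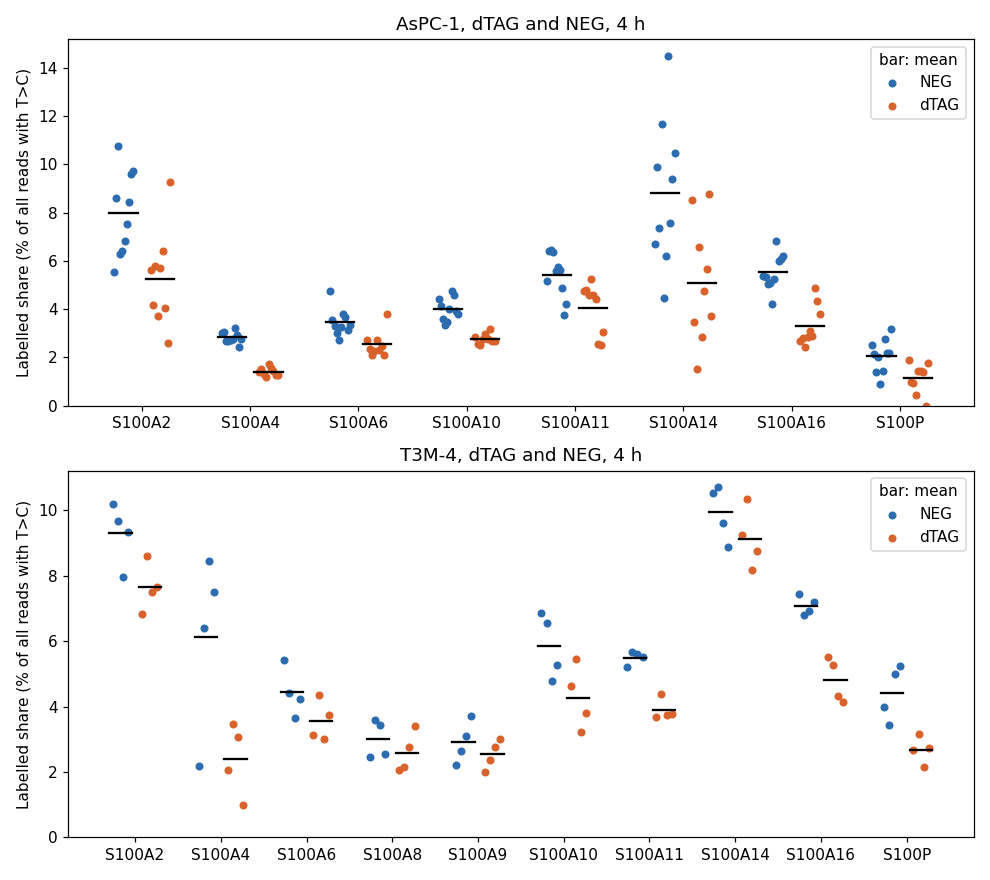
Labelled share (percent of a gene's reads with T>C, y axis) in each dTAG and NEG library of AsPC-1 (top, 9 and 10 libraries) and T3M-4 (bottom, 4 and 4), with a bar at each mean. The AsPC-1 dTAG points of S100A4 and S100A10 and the T3M-4 dTAG points of S100A11, S100A16 and S100P all lie under the NEG points.

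In T>C reads scaled to the T>C total of each library, fewer members were called. All 8 members had a log2 fold change below 0 after dTAG in AsPC-1 (median -0.58, against 0.03 over all genes), and 1 was called by edgeR, against 2.4% of 11696 genes. This was S100A16, whose T>C reads were 49.5 to 126.7 CPM with a median of 67.5 after dTAG and 82.7 to 237.6 CPM with a median of 114.7 with NEG. The groups overlapped, and the log2 fold change was -0.83 ± 0.21 (adjusted p = 0.030), with -0.86 ± 0.16 in batch 1 (adjusted p = 0.0253) and -0.83 ± 0.37 in batch 2 (adjusted p = 0.567). Without experiment 1 its adjusted p was 0.494 and without experiment 2 it was 0.0593. S100A14 had -1.19 ± 0.33 (adjusted p = 0.056), S100A4 -0.83 ± 0.26 (adjusted p = 0.12) and S100P -0.82 ± 0.48 (adjusted p = 0.56). With the experiment number as a paired block, S100A4 was called as well (-0.91 ± 0.23, adjusted p = 0.0283). The remaining S100A2, S100A6, S100A10 and S100A11 had values between -0.34 and -0.20. In all reads, 0 of 8 members were called by edgeR (0.797% of genes were), 1 had an unadjusted p under 0.05 (S100A14, -0.57 ± 0.19) and DESeq2 called 0.

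In T3M-4, all 10 members also had log2 fold changes of T>C reads below 0 after dTAG, with a median of -0.59 against 0.01 over all genes. By the planned edgeR test 0 of 10 were called, against 0.834% of 13424 genes, and 5 had an unadjusted p under 0.05, as did 957 genes. With the experiment number as a paired block, and separately with DESeq2, 4 were called: S100A10, S100A11, S100A16 and S100P. When counts were summed per experiment, 0 of 10 members and 0 of 14753 genes were called, and in each experiment alone 0 of 10 members were called. The experiments differed in level for several members, as S100A8 did (33.9 to 54.1 CPM of all reads in experiment 1 and 13.8 to 22.5 CPM in experiment 2).

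S100P, the pancreatic cancer member that binds ezrin, had 59.3, 67.5, 77.4 and 83.4 T>C CPM in the dTAG libraries and 88.2, 110.8, 166.5 and 167.1 T>C CPM with NEG. The groups did not overlap, and the log2 fold change was -0.97 ± 0.25 (adjusted p = 0.15) and with the paired block -0.92 ± 0.20 (adjusted p = 0.0345). S100A11 had 81.2, 114.6, 117.2 and 117.9 T>C CPM after dTAG and 138, 193.8, 194.6 and 265 T>C CPM with NEG, again with every dTAG library lower. Its log2 fold change was -0.95 ± 0.23 (adjusted p = 0.13) and with the paired block -0.96 ± 0.21 (adjusted p = 0.0365). S100A16 had 82.7, 113.6, 118.3 and 124.8 T>C CPM after dTAG and 143.4, 150, 215.6 and 239.3 T>C CPM with NEG, without overlap (-0.85 ± 0.23, adjusted p = 0.20, with the paired block -0.81 ± 0.16, adjusted p = 0.0192). S100A10 had -0.74 ± 0.20 (adjusted p = 0.19, with the paired block 0.0372). S100A4, at 24 to 64 T>C counts a library after dTAG in multiples of 4, had the lowest fold change with the widest error (-1.66 ± 0.60, adjusted p = 0.45). S100A14 (-0.21 ± 0.29), S100A2 (-0.41 ± 0.22), S100A6 (-0.44 ± 0.22), S100A8 (-0.41 ± 0.42) and S100A9 (-0.45 ± 0.26) were nearer to 0.

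The labelled share in T3M-4 gave no call by limma for any member (0 of 10, against 0.00756% of 13228 genes). An unadjusted p under 0.05 was found for 4 members and 901 genes. All 10 differences were below 0, with a median of -0.41 against 0.08 over all genes. For 3 of 10 members every dTAG library was lower than every NEG library, against 2.14% of genes. These were S100A11 (3.68% to 4.39% against 5.22% to 5.66%), S100A16 (4.14% to 5.52% against 6.79% to 7.43%) and S100P (2.16% to 3.16% against 3.44% to 5.25%). In all reads, 0 of 10 members were called by edgeR, as against 0.0191% of genes, 0 had an unadjusted p under 0.05 and DESeq2 called 0. A test of the difference in the dTAG effect between lines called 0 of 8 members in T>C reads, against 0.0426% of 14088 genes. In labelled share it called 0 of 8, against 6.42% of 11239 genes. In either measure 0 members had an unadjusted p under 0.05, where 824 and 3391 genes did. DESeq2 called 0 members in T>C reads.

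Other genes linked to the S100 proteins were counted from lists. After dTAG, 0 of 1 tested other S100 gene in AsPC-1 and 0 of 3 in T3M-4 were called in T>C reads, where 2.4% and 0.834% of all genes were. Among partners and receptors, 0 of 12 and 0 of 13 were called in T>C reads. In labelled share, 6 of 11 tested partners fell in AsPC-1 with a median of -0.36, beside 39.7% of all genes called and a median of -0.33, and 0 of 12 were called in T3M-4. ANXA2, the annexin bound by S100A10, had -0.68 ± 0.10 (limma adjusted p = 0.000214), the scaffold AHNAK -0.63 ± 0.13 (adjusted p = 0.00211) and EZR (ezrin) -0.45 ± 0.10 (adjusted p = 0.00321), while ANXA1 had -0.21 ± 0.16 (adjusted p = 0.286). Of the epidermal differentiation complex genes next to the cluster, 0 of 19 passed the filter in AsPC-1, and in T3M-4 0 of 10 tested were called with a median log2 fold change of -1.1. These 10 ran from -2.71 ± 0.70 for IVL to -0.31 ± 0.26 for SPRR2E. The lowest p among them was that of SPRR1B (edgeR unadjusted p = 0.000887, adjusted p = 0.081). By the likeness of T>C CPM (Pearson r of log2 values, given as a description), S100A2 in T3M-4 was most alike to CSTB (0.93), ANAPC15 (0.93) and ZFP36L2 (0.92) over 16 libraries without NVP-2, which share their experiments.

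CB-6644 left no called member. In T>C reads at 4 h, 0 of 8 members in AsPC-1 and 0 of 10 in T3M-4 were called by edgeR, as was 0.0% of all genes in both, with 482 and 569 genes at an unadjusted p under 0.05 and 0 and 5 genes called by DESeq2. At 12 h in AsPC-1 it was again 0 of 8 (0.0% of genes, 473 unadjusted, 20 by DESeq2). The labelled share called 0 of 8 at 4 h in AsPC-1 (0.0338% of genes), 0 of 10 in T3M-4 (0.0% of genes) and 0 of 8 at 12 h (0.00808% of genes). Unadjusted p-values under 0.05 in labelled share were found for 5 of 8 AsPC-1 members at 4 h and 1 of 10 T3M-4 members (S100A2). At 12 h they were found for none of the AsPC-1 members (0 of 8). Over all genes they were found for 2690 of 11830, 363 of 13313 and 557 of 12381 in these fits. In AsPC-1 at 4 h the median change in log2 odds was -0.53 for the members and -0.27 over all genes.

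Groups of 5 against 5 or 4 against 4 libraries were nevertheless separate for several members. In AsPC-1 at 4 h every CB-6644 library was lower in labelled share than every DMSO library for 4 of 8 members, against 7.4% of genes, in libraries whose T>C share was 8.51% ± 0.254 against 10.1% ± 0.622. S100A14 had 1.87%, 5.52%, 6.67%, 7.12% and 7.28% with CB-6644 and 7.69%, 11.4%, 11.6%, 15.6% and 17.5% with DMSO, from 20 to 108 T>C counts a CB-6644 library in multiples of 4. The difference was -1.36 ± 0.41 (adjusted p = 0.12). S100A10 (3.29% ± 0.206 against 4.71% ± 0.456), S100A16 (4.37% ± 0.264 against 6.33% ± 0.661) and S100A4 (2.07% ± 0.221 against 2.79% ± 0.446) were also without overlap. In T3M-4 it was 4 other members of 10, against 1.28% of genes, namely S100A2, S100A6, S100A8 and S100A11. S100A2 had 5.86%, 6.45%, 7.42% and 8.02% with CB-6644 and 8.68%, 9.01%, 9.46% and 9.69% with DMSO (-0.45 ± 0.19, adjusted p = 1.00). S100A2 T>C reads in T3M-4 were 781 to 824 CPM with CB-6644 and 1340 to 1380 CPM with DMSO in experiment 1. In experiment 2 they were 1280 to 1940 CPM and 1680 to 1820 CPM, which overlapped. The paper, from RNA-seq and SLAM-seq, names S100A2 among basal genes suppressed by CB-6644 in T3M-4. At 12 h no member of 8 was separate in AsPC-1. The difference in the CB-6644 effect between lines called 0 of 8 members and 0.0% of genes in both T>C reads and labelled share. An unadjusted p under 0.05 was found for 1 and 2 members and for 511 and 971 genes.

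**Figure D3:**
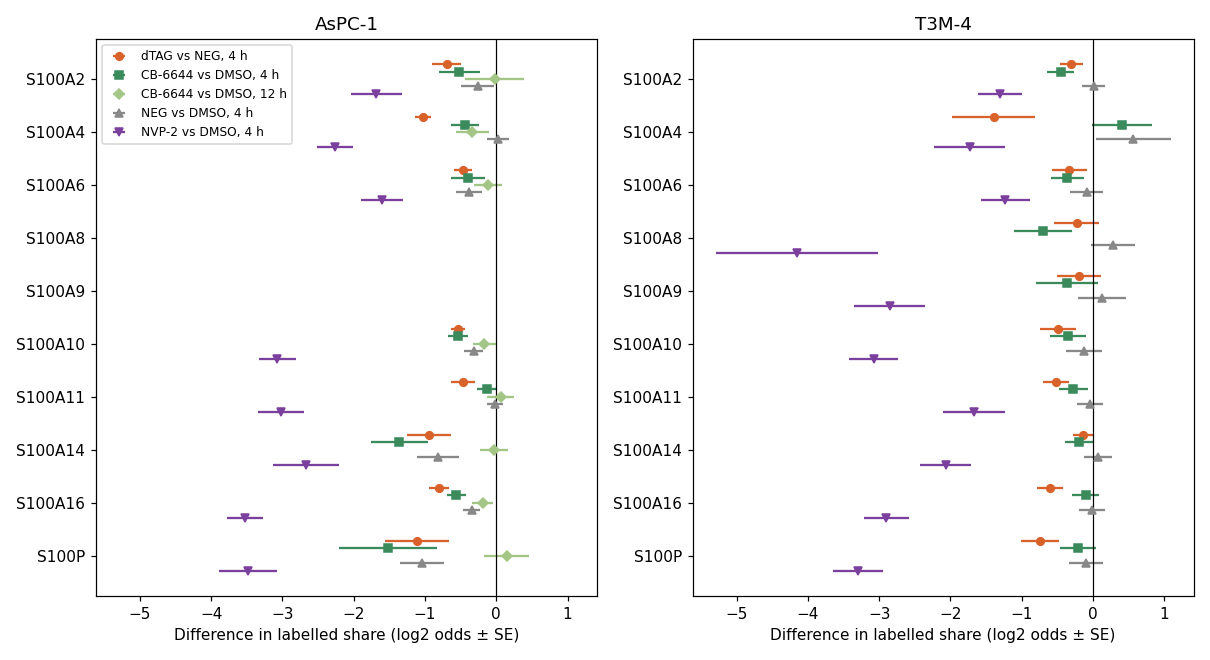
Difference in labelled share (log2 odds ± SE from limma) of each member in each comparison, AsPC-1 left and T3M-4 right, with a line at 0. NVP-2 points lie farthest below 0 for every member, and dTAG points lie below 0 for all 8 members of AsPC-1 and all 10 of T3M-4.

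NEG against DMSO compared the inactive analogue with the solvent. By edgeR 0 of 8 members in AsPC-1 and 0 of 10 in T3M-4 were called in T>C reads, as was 0.0% of genes in both, with 878 and 255 genes at an unadjusted p under 0.05 and 21 and 2 genes called by DESeq2. In labelled share limma called 0 of 8 members and 0 of 11808 genes in AsPC-1, with 4 members and 883 genes at an unadjusted p under 0.05, and 0 of 10 members in T3M-4, with 0 unadjusted. In AsPC-1 every NEG library was lower than every DMSO library for 1 of 8 members and 97 of 11808 genes. This was S100A16, whose labelled share was 5.05% ± 0.428 in the 6 batch 1 NEG libraries and 6.33% ± 0.661 in the 5 DMSO libraries (-0.35 ± 0.12, adjusted p = 0.56). S100P had 1.74% ± 0.593 against 3.50% ± 1.18 (-1.04 ± 0.31, adjusted p = 0.53) and S100A14 7.71% ± 2.62 against 12.7% ± 3.87 (-0.82 ± 0.30, adjusted p = 0.56). S100A10 had 3.82% ± 0.419 against 4.71% ± 0.456. The dTAG differences above are against NEG, and the CB-6644 and NVP-2 differences are against DMSO. Of the AsPC-1 members separate under CB-6644 at 4 h, 3 were also lower with NEG against the same DMSO libraries. The NEG mean was 60.5% of the DMSO mean for S100A14, 79.7% for S100A16 and 81.1% for S100A10, but 101% for S100A4.

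Under NVP-2, which blocks release of paused RNA polymerase, the labelled share of every member fell, in 8 of 8 members in AsPC-1 and 10 of 10 in T3M-4. This was true of 95.9% and 91.8% of all genes, nearly all lower, and every NVP-2 library lay under every DMSO library for 89.9% and 87.0% of genes. T>C reads as a whole were 1.57% ± 0.239 and 2.24% ± 0.417 of all reads. What set the members apart was how much labelled share they kept. In AsPC-1 the mean share under NVP-2 was 35.2% of the DMSO mean for S100A6 and 34.5% for S100A2, and 9.35% for S100A16 and 8.9% for S100P, where the median of all genes was 11.9%. In T3M-4 it was 45.1% for S100A6, 43.7% for S100A2, 36.8% for S100A11 and 31.0% for S100A4, and 12.4% for S100A10 and 10.7% for S100P, where the median of all genes was 12.4%. S100A6 and S100A2 kept the most of the members measured in both lines, and S100P the least. These percentages were not tested against each other.

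S100A6 labelled share in T3M-4 was 1.65%, 1.68%, 2.00% and 3.09% under NVP-2 and 4.30%, 4.49%, 4.55% and 5.33% in DMSO. In AsPC-1 it was 1.1%, 1.28%, 1.39% and 2.42% against 3.65%, 3.80%, 4.39%, 5.02% and 5.15%. The groups were apart in both lines by less than a log2 odds difference of 2 (-1.23 ± 0.34 and -1.60 ± 0.29). S100A11 in T3M-4 ranged more widely, with 1.16%, 1.44%, 1.75% and 3.94% under NVP-2. S100A16, by contrast, had 0.85%, 1.05%, 1.08% and 1.15% under NVP-2 in T3M-4 and 6.44% to 8.19% in DMSO (-2.90 ± 0.31). S100A8 had 0 T>C reads of 3396 in the T3M-4 NVP-2 library 2.1, which allows a share of up to 0.177%.

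**Figure D4:**
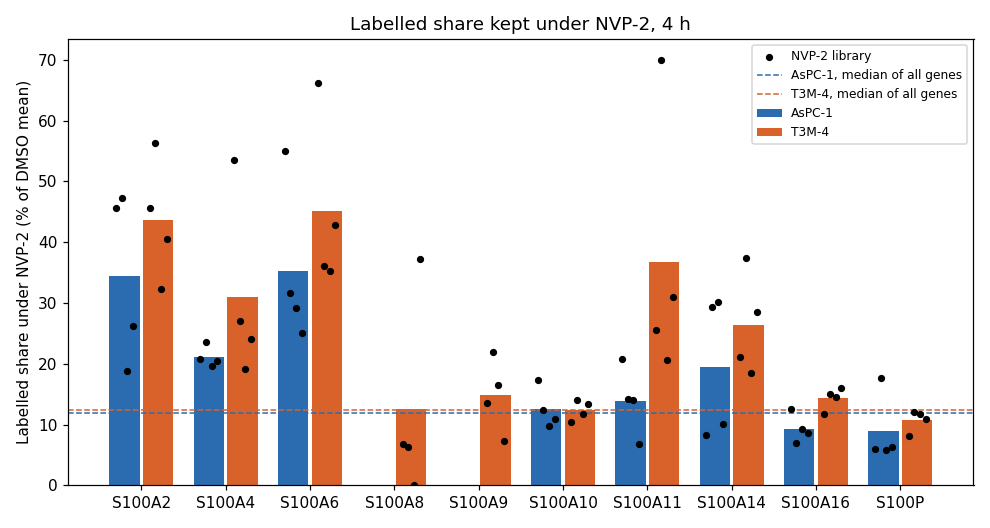
Labelled share under NVP-2 as a percentage of the DMSO mean (y axis) for each member, with bars for the mean of the 4 NVP-2 libraries of AsPC-1 or T3M-4, black points for the libraries and dashed lines at the medians of all genes (11.9% and 12.4%). S100A2 and S100A6 stand highest in AsPC-1 and T3M-4, and S100A8 and S100A9 of AsPC-1 are not drawn.

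Relative to the shrunken T>C total of their libraries, several members rose. In T3M-4, 4 of 10 were higher by edgeR, where 26.7% of 12242 genes were called in either direction and 12.4% were higher. In AsPC-1 it was 2 of 8, where 30.5% of 11498 genes were called in either direction and 12.9% were higher. S100A2 in T3M-4 had 3271, 4268, 4497 and 4513 T>C CPM under NVP-2, all above the 1337 to 1817 T>C CPM of DMSO (2.02 ± 0.30, adjusted p = 0.00121). S100A6 had 2.08 ± 0.31, S100A14 1.01 ± 0.26 and S100A11 1.00 ± 0.31. In AsPC-1 the calls were S100A6 (1.404 ± 0.25, adjusted p = 0.00162) and S100A2 (1.59 ± 0.48, adjusted p = 0.026). S100A6 had 940 to 1780 T>C CPM under NVP-2 over both experiments and 508 to 797 T>C CPM in DMSO. S100A2 had 68.2 and 106.5 T>C CPM in NVP-2 experiment 1 but 16.5 and 27.2 T>C CPM in experiment 2. The experiment 2 values lay within or under the DMSO range of 17.4 to 39.5 T>C CPM. In these NVP-2 experiments its all reads had means of 35.3 and 15.7 CPM, and its labelled share had means of 4.07% and 1.98%. Its call was kept in 5 of 9 fits that each left out a library, over which the log2 fold change ran from 1.09 to 1.89, and was lost without DMSO library 1.3 or 2.2 or NVP-2 library 1.1 or 1.2. S100A4 had 1.1 ± 0.47 (adjusted p = 0.098). With libraries scaled by their all-read totals instead, which moved the median gene of AsPC-1 from -0.05 to -3.04 and the median gene of T3M-4 from -0.12 to -2.97, every one of these members was lower under NVP-2, S100A2 by -1.36 and -0.91 and S100A6 by -1.53 and -0.85 on the log2 scale. That scaling shifts all genes of a library alike. It keeps the fall of T>C reads as a whole, which scaling to the T>C total removes, and the change of direction follows from that. In all reads 0 members were called in either line by edgeR, against 11.8% of 14095 genes in AsPC-1 and 5.16% of 15653 in T3M-4. Unadjusted p-values under 0.05 were found for 0 members and 3869 genes in AsPC-1 and for 3 members and 2541 genes in T3M-4. DESeq2 called 0 and 1 members. In AsPC-1 NVP-2 and batch cannot be told apart from the DMSO at 4 h. Against batch 2 controls, NEG of experiment 3 or DMSO at 12 h, all 8 members were again lower in labelled share. In T>C reads the median log2 fold change of the 8 members was 0.93 and 0.99 against these controls, compared with 0.40 against DMSO at 4 h, and 3 and 2 members were called, all higher. S100A6 had 2.04 ± 0.26 and 2.1 ± 0.30, and S100A2 had 2.0 ± 0.53 and 2.15 ± 0.52. The difference in the NVP-2 effect between lines called 0 of 8 members in T>C reads, against 0.851% of 13159 genes. In labelled share it called 0 of 8, against 0.684% of 11107 genes, and S100A11 had the 1 unadjusted p under 0.05 (1.36 ± 0.52).

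The standing level of the members also varied between libraries within groups. In AsPC-1, all reads of S100A4 ran from 973 to 5120 CPM and those of S100A11 from 196 to 1050 CPM. The libraries were cut into 3 sets, a number fixed beforehand, by hierarchical clustering of the 500 most variable genes in all reads. Members were not kept out of those genes, so a spread of a member between sets may be partly built in. The sets are also called culture sets here, a name the labels do not give. They held 16, 17 and 8 libraries and crossed the treatments, and the third was experiment 2 of the dTAG, NEG, CB-6644 and DMSO groups at 4 h. Medians of S100A2 were 35.7, 14.7 and 25.2 CPM in these sets and those of S100P were 15.8, 6.07 and 13.9 CPM, and S100A10 had 691, 1110 and 644 CPM. Those of S100A16 were 171, 281 and 173 CPM and those of S100A14 were 8.27, 8.72 and 8.72 CPM. The NVP-2 libraries of experiment 1 were all in the first set and those of experiment 2 all in the second. The part of the sets in the S100A2 difference between these NVP-2 experiments was not tested. The 5 libraries highest in S100A11 had 678.9 to 1048 CPM of it and came from NVP-2, dTAG, NEG and DMSO, and all 5 had 1430 to 3410 CPM of S100A4, under the AsPC-1 median of 3470 CPM. With the set added to the paired block, 3 members, S100A4, S100A14 and S100A16, were called in T>C reads after dTAG in AsPC-1, where S100A4 had -1.11 ± 0.22 (adjusted p = 0.00225).

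**Figure D5:**
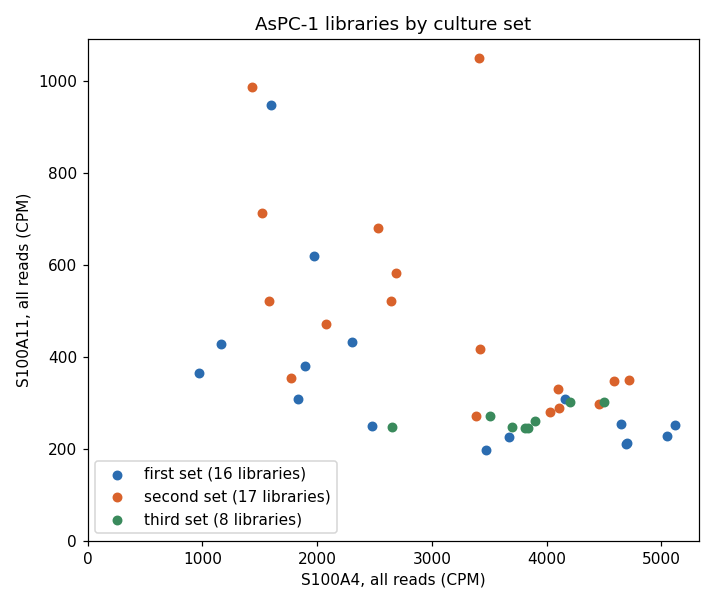
All reads of S100A11 (CPM, y axis) against all reads of S100A4 (CPM, x axis) in the 41 AsPC-1 libraries, colored by the 3 sets of 16, 17 and 8 libraries. Libraries over 600 CPM of S100A11 lie under the S100A4 median of 3470 CPM, in the first and second sets.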

How the data were processed

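RNA of 62 libraries in 12 groups was profiled by SLAM-seq with 3′ end sequencing. The authors mapped and counted reads with slamdunk on hg38 over GENCODE v44 3′ untranslated exons, and the deposited tables hold counts of T>C reads and of all reads summed per gene. No spike-in and no library without 4sU was used here. Counts were tested with edgeR 4.0.16 (quasi-likelihood, TMM, filterByExpr, only the compared groups, Benjamini-Hochberg adjustment over all genes, threshold 0.05). The labelled share was tested with limma 3.58.1 on log2 odds with a pseudocount of 0.5, for genes with at least 20 reads in every library. CPM are counts over the library total. Each SE is the log2 fold change over the square root of F for edgeR. The scripts were tested on simulated data. All 10 members were named, and other genes only as members of lists or by highest Pearson r with S100A2 or S100P. The members and lists were chosen with earlier results of these data known. The all-read column of AsPC-1 dTAG library 3.1 was left out because it is identical to the T>C column of DMSO library 2 at 12 h. Experiment numbers were taken as pairing libraries by the correlation of deviations from group means (0.41, 0.63 and 0.47 in dTAG of AsPC-1, and 0.53 in dTAG of T3M-4, where the number also marks the batch). For NVP-2 against DMSO in AsPC-1, from different batches, this correlation was -0.0045. The numbers did not pair libraries there, though the replicate block was still run. Alternatives were DESeq2 1.42.0, other scalings and filters, the replicate block, and leaving out libraries, experiments or batches.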

Additional observations from a re-analysis of the deposited data

Results flagged for a closer look

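Among 106 groups of 4 to 10 libraries, 6 held a library whose labelled share lay far from the others, where chance gives about 5% of groups. S100A4 had 3.56% in library 1.2 of DMSO at 4 h in AsPC-1, with the nearest library at 2.76%. S100A6 had 3.81% in dTAG library 3.4 of AsPC-1 (nearest 2.73%) and 4.77% in NEG library 1.1 of AsPC-1 (nearest 3.79%). S100A11 had 5.63% in library 2 of CB-6644 at 12 h in AsPC-1 (nearest 4.12%) and 4.39% in dTAG library 1.2 of T3M-4 (nearest 3.76%). S100P had 0.617% in NVP-2 library 1.2 of AsPC-1 (nearest 0.22%).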

How the results depend on the processing

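Of 4192 values of members under an alternative, 3803 kept their direction and side of the threshold, 60 lost and 27 gained a call, 286 changed sign without a call in either setting, and 16 changed sign with a call. All 16 were T>C reads under NVP-2 scaled by all reads. That scaling keeps the fall of T>C reads as a whole, which scaling to the T>C total removes. It shifts all genes of a library alike and says nothing particular to the members. There the log2 fold changes in AsPC-1 were -2.65 for S100A10, -2.61 for S100A11, -2.72 for S100A14, -1.36 for S100A2, -1.97 for S100A4, -1.53 for S100A6 and -2.66 for S100P, and in T3M-4 -2.59 for S100A10, -1.9 for S100A11, -1.93 for S100A14, -2.58 for S100A16, -0.905 for S100A2, -1.45 for S100A4, -0.852 for S100A6, -2.28 for S100A9 and -2.95 for S100P. Members called in T>C reads after dTAG in AsPC-1 (1) became 3 with DESeq2, 4 scaled by all reads and 2 with a minimum count of 50. They became 2 with the replicate block and 3 with the block and culture set. They became 0 summed per experiment, in batch 2 alone, or without experiment 1 or 2. In labelled share (7) they became 8 with a minimum of 100 reads or a pseudocount of 2. They became 6 without experiment 2, 5 in batch 1 alone, 1 without experiment 1 and 0 in batch 2 alone. After dTAG in T3M-4 (0) they became 4 with DESeq2 and 4 with the paired block, and stayed 0 summed per experiment and in each experiment alone. Under NVP-2 they became 8 (AsPC-1, from 2) and 10 (T3M-4, from 4) scaled by all reads, 0 and 0 summed per experiment, 3 and 5 with DESeq2, 3 in AsPC-1 against NEG of experiment 3, and in T3M-4 3 with no low-count filter, 2 in experiment 1 alone and 5 in experiment 2 alone, and in all reads of T3M-4 1 with DESeq2 (from 0). Leaving out 1 library at a time gave 1 to 2 and 2 to 4 members under NVP-2. Over all genes, calls in T>C reads after dTAG in AsPC-1 (281) became 478 with DESeq2, 1171 scaled by all reads, 447 with the block, 896 with block and culture set, 103 in batch 1 alone, 16 in batch 2 alone, 36 without experiment 1 and 0 summed. In labelled share (4695) they became 4, 189 and 2501 in batch 2 alone and without experiments 1 and 2. In T3M-4 (112) they became 340 with DESeq2, 354 with the block, 38 in experiment 1 alone, 22 to 70 with 1 library left out and 0 summed. The labelled-share fits within a batch or experiment, with the culture set, and against batch 2 controls were added after seeing the data. So were the labelled-share tests of a difference in effect between lines. Where a cause is not set by the alternative itself, the cause was not tested.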
